A study of Mus musculus with 12 samples.

Results

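The 9 genes described here mark Purkinje cells and granule cells, the best known neurons of the cerebellum: Pcp2, Calb1, Car8 and Itpr1 are genes of Purkinje cells, and Cbln1, Cbln3, Gabra6, Zic1 and Zic2 are genes of granule cells. They were chosen by symbol, as known markers of these cells and with earlier results of these data known, and each was found by its Ensembl identifier among the 38924 genes of the tables, so that 9 of 9 were measured. All 9 also passed the filter on low counts.

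The study compared whole brains of high stepper mice, which carry homozygous mutations of Rorb, the gene of the retinoic acid receptor-related orphan nuclear receptor RORβ, with brains of wild-type mice. Each genotype was represented by 3 mice of 6 weeks and 1 library of polyadenylated RNA per mouse. The Rorb h1/h1 mice (h1) had the C57BL/6J background, the Rorb h2/h2 mice (h2) the B6(Cg)-Tyrc-2J/J background and the Rorb h4/h4 mice (h4) the B6.129S7-Il1r1tm1Imx/J background. The wild-type mice (WT) had the C57BL/6J background. An effect of the h2 or the h4 allele therefore cannot be told apart from one of its background strain, and the wild-type mice served in every comparison of a mutant with WT. No Cre driver, transgene or drug is named in the labels, but the background names of h2 and h4 include alleles of Tyr and Il1r1.

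Purkinje cells are the sole output neurons of the cerebellar cortex, and granule cells, the most numerous neurons of the brain, send them excitatory input through parallel fibres. Granule cells release cerebellins, which bridge neurexins on the parallel fibre to the receptor GluD2 on the Purkinje cell and hold that synapse together. The ROR family member known for its role in Purkinje cells is RORα, encoded by Rora, whose loss causes the staggerer phenotype, whereas Rorb is known from retina, cortex and spinal cord. Several of the 9 genes are also expressed elsewhere in the brain: Calb1 and Itpr1 are widely expressed in forebrain neurons, and Zic1 and Zic2 also in the septum, the olfactory bulb and the meninges.

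Promoters are shown for 1 Purkinje cell gene and 3 granule cell genes. These are the 4 of the 9 genes found in the set of RefSeq promoters used, in the GRCm38.p6 build. The sites searched in them belong to factors known from these cells. Each window runs from 250 bases before to 50 bases after an annotated transcription start, on the minus strand. The letters searched, on both strands, were AGGTCA, the nuclear receptor half-site that ROR proteins bind, TTGGCA, a half-site of nuclear factor I, which acts on the Gabra6 promoter in granule cells, and the E-boxes CAGATG and CAGCTG. None of the matches below overlaps another, and capitals mark each match, with TTGGCA appearing as its reverse complement TGCCAA.

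Pcp2, first start, chr8:3625498-3625797: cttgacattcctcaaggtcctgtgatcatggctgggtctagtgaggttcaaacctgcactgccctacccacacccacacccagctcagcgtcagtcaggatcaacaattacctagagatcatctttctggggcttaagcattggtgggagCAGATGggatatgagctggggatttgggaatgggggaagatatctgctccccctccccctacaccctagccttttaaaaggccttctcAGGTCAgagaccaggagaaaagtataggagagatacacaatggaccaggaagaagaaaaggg
Cbln3, chr14:55884207-55884506: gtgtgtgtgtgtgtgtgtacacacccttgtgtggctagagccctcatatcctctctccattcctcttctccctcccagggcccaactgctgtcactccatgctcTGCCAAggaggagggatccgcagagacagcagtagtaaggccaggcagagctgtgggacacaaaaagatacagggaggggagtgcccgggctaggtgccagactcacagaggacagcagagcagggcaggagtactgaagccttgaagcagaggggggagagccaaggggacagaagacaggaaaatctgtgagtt
Gabra6, chr11:42321023-42321322: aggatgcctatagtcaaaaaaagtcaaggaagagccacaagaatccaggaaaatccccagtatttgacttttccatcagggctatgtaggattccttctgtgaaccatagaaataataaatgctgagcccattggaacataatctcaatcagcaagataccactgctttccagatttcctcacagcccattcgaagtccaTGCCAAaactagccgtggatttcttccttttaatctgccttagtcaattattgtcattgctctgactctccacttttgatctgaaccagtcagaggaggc
Zic1, chr9:91365719-91366018: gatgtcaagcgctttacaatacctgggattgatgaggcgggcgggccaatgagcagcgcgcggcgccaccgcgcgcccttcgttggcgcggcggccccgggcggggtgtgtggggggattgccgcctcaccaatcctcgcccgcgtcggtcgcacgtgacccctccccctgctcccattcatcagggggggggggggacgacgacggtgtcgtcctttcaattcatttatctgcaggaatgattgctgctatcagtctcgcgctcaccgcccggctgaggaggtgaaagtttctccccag

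The AGGTCA match of Pcp2 began 12 bases before the first annotated start (position -12), on the strand of the gene, and a CAGATG match began at -100. Pcp2 has 4 annotated starts in RefSeq, and a second AGGTCA lay at -26 of the fourth. The nuclear factor I half-site lay at -146 in Cbln3 and at -50 in Gabra6, on the strand opposite to the gene, and none of the 4 motifs was found in the Zic1 window. Of 32851 promoters of the same length, 16.3% held AGGTCA, 14.1% TTGGCA, 17.2% CAGATG and 16.3% CAGCTG, so a single match is common.

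Libraries held 14513800 to 24694200 estimated read pairs, and the 9 genes together took 0.209% to 0.252% of them. Rorb, the mutated gene, had 22.6 to 33.1 CPM (counts scaled to a fixed library total) in h1 brains, 22.6 to 31.1 CPM in h2 brains and 8.65 to 9.11 CPM in h4 brains, against 16.3 to 18.4 CPM in WT brains. Xist, the transcript of the inactive X chromosome, was high in 7 libraries (1 of h1, 1 of h2, 2 of h4 and all 3 of WT) and near 0 in the other 5. The labels do not give the sex of the mice, and WT had no library low in Xist. RNA of whole brains cannot tell fewer cells of a type apart from less RNA per cell.

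Levels per transcript length can be compared between genes. In TPM, the authors' length-normalised level, Itpr1 averaged 203 ± 16.8 (SD over 12 libraries), Pcp2 195 ± 22.3, Car8 139 ± 11.6 and Calb1 133 ± 6.37. Among the granule cell genes Cbln1 averaged 116 ± 9.86 TPM, Gabra6 108 ± 9.92, Cbln3 105 ± 10.1, Zic1 71.2 ± 6.84 and Zic2 27.5 ± 2.61. The ranges of Itpr1 and Pcp2 overlapped, as did those of Car8 and Calb1, and those of Cbln1, Gabra6 and Cbln3, so the order inside each of these sets is not larger than the spread between brains. Car8 (114 to 153 TPM) and Calb1 (119 to 143 TPM) also overlapped with Cbln1 (101 to 137 TPM), Gabra6 (95.1 to 128 TPM) and Cbln3 (91.5 to 126 TPM). Pcp2 lay between 160 and 233 TPM and did not overlap with Car8, between 114 and 153 TPM. Zic1, between 63.7 and 88.2 TPM, and Zic2, between 23.4 and 32.1 TPM, stood apart from the genes above them. Pcp2 is a very short transcript, with an estimated effective length of 301 bases against 9638 for Itpr1, so that its level per length rests on only 31.4 CPM where that of Itpr1 rests on 1047 CPM.

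**Figure D1:**
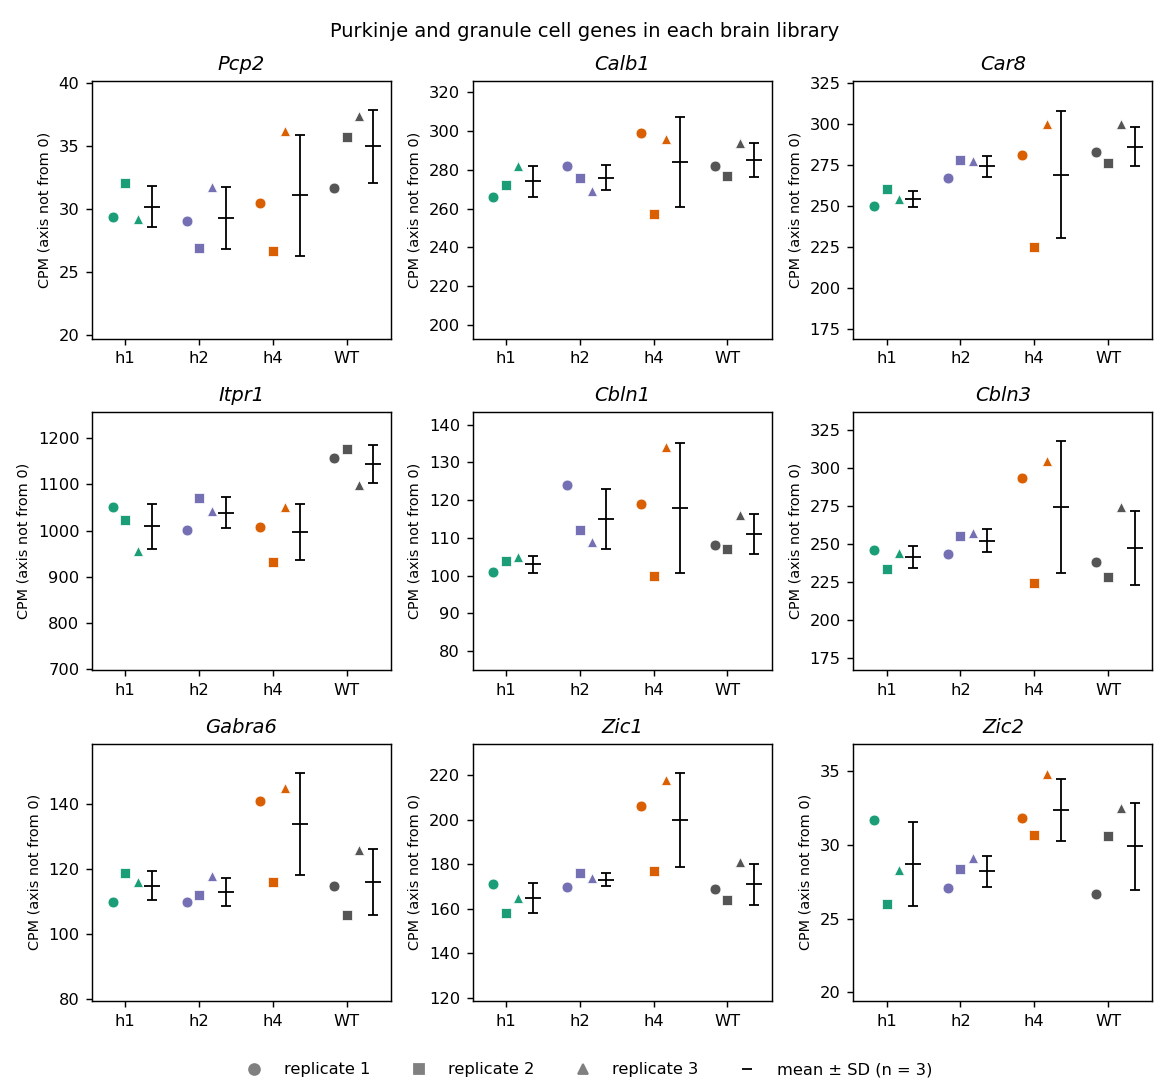
CPM of each gene in every brain, in the order h1, h2, h4 and WT, with 1 panel per gene, points for the 3 mice of a genotype, bars for the mean and SD, and an axis that does not start at 0. Itpr1 lies between 931 and 1071 CPM in the 9 mutant brains and between 1098 and 1176 CPM in the WT brains, and 4 of the 5 granule cell genes, all but Zic2, spread most in h4.

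Among the Purkinje cell genes, Itpr1, which encodes the type 1 inositol trisphosphate receptor that releases calcium from the endoplasmic reticulum, was lower in the mutants. It had 1050, 1022 and 955 CPM in h1 brains, 1002, 1071 and 1043 CPM in h2 brains and 1007, 931 and 1051 CPM in h4 brains, against 1158, 1176 and 1098 CPM in WT brains. All 9 mutant brains were below all 3 WT brains, a separation in the lower direction shown by 0.879% of the 16493 genes tested. Itpr1 fell in h4 by 0.21 on the log2 scale (SE 0.04), or to 0.866 of the WT level, with a Benjamini-Hochberg adjusted p of 0.00403 from edgeR. It was the 1 of 9 genes called in h4 against WT, where 4.55% of all genes were called and 2.91% were called lower.

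Itpr1 had a log2 fold change of -0.17 in h1 (SE 0.04, edgeR adjusted p 0.0526) and of -0.14 in h2 (SE 0.04, edgeR adjusted p 0.131). For the mean of the 3 mutants against WT, Itpr1 fell by 0.17 on the log2 scale (SE 0.03, edgeR adjusted p 0.00938), again as the 1 of 9 genes called, where 1.1% of all genes were called and 0.612% were called lower. With Xist status as a covariate this last call was lost (log2 fold change -0.12, edgeR adjusted p 0.106), as it was without WT replicate 1 (adjusted p 0.195) or WT replicate 2 (adjusted p 0.134). The call in h4 held with the covariate (-0.18, edgeR adjusted p 0.004), and limma on log2(TPM + 0.1) called neither (adjusted p 0.0842 in h4 and 0.211 for the mean of the mutants). Among brains high in Xist, Itpr1 had 1050 CPM in h1, 1071 CPM in h2 and 1007 and 1051 CPM in h4, all below the 3 WT values. These values are given as a description, and the difference among brains high in Xist was not tested.

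Pcp2 encodes a modulator of G protein signalling that is found in Purkinje cells and retinal bipolar cells. It had 29.4, 32.1 and 29.2 CPM in h1 brains, 29.1, 26.9 and 31.8 CPM in h2 brains and 30.5, 26.7 and 36.2 CPM in h4 brains, against 31.7, 35.7 and 37.4 CPM in WT brains. Only the h4 brain of replicate 3 reached into the upper part of the WT range, and the lowest WT brain lay below the highest brain of each mutant. The log2 fold changes of Pcp2 were -0.20 in h1, -0.25 in h2 and -0.18 in h4 (SE 0.09 each), but with edgeR adjusted p of 0.489, 0.285 and 0.344 none was called. The 95% interval in h2 ran from -0.47 to -0.04 on the log2 scale.

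Car8, whose protein binds the receptor encoded by Itpr1 and lowers its affinity for inositol trisphosphate, had 250, 260 and 254 CPM in h1 brains, against 283, 276 and 300 CPM in WT brains. These groups did not overlap, but the difference was not called (log2 fold change -0.16, SE 0.08, edgeR adjusted p 0.574). It was called when only the h1 and WT libraries entered the fit (SE 0.04, edgeR adjusted p 0.0432). Leaving out h4 replicate 2 also gave a call (edgeR adjusted p 0.0367). In h2 brains Car8 had 267, 278 and 277 CPM and in h4 brains 281, 225 and 300 CPM, both overlapping with WT. Calb1, the calcium buffer calbindin, stayed within 257 to 299 CPM over all 12 brains. Its log2 fold changes were -0.05, -0.05 and -0.01 in h1, h2 and h4, with 95% intervals from -0.15 to 0.06 in h1 and h2 and from -0.12 to 0.09 in h4.

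All 4 Purkinje cell genes thus had a log2 fold change below 0 in each mutant, with medians of -0.17 in h1, -0.10 in h2 and -0.14 in h4, against medians of 0.000, 0.003 and 0.009 over all genes tested. With Xist status as a covariate, Car8 in h2 was at 0.01 and Calb1 in h4 at 0.00. These 3 comparisons share the WT brains, so a high value there enters each of them. The summed level of the 4 genes was 1521 to 1595 CPM in h1, 1580 to 1651 CPM in h2 and 1441 to 1683 CPM in h4, against 1729 to 1765 CPM in WT, and most of each sum is Itpr1. Genes of oligodendrocytes, the myelinating cells, differed between the same brains: the summed level of 8 of them was 13887 to 14313 CPM in h1, 12083 to 13066 CPM in h2 and 12144 to 13029 CPM in h4, against 10748 to 12279 CPM in WT, none being at 0 in any brain. Of these 8 genes, edgeR called 6 higher in h1, 1 in h2, 0 in h4 and 6 in the mean of the mutants, and their part in the values of the Purkinje cell genes was not tested.

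No granule cell gene was called by edgeR in any mutant against WT, whereas DESeq2 called Gabra6 and Zic1 higher in h4. In the main edgeR fit of all 12 libraries, no gene of either set was called in h1, where 0.625% of all genes were called, or in h2, where 0.679% were. In h1 and in h2 alike, 2 of the 9 genes, Pcp2 and Itpr1, had an unadjusted p under 0.05 in edgeR, and DESeq2 called 1 gene (Itpr1) in h1 and 0 in h2. Cbln1, Car8 and Itpr1 did not overlap with WT in h1, all lower, where 8.72% of all genes showed this. In h2 only Itpr1 did not, where 7.53% did, and likewise in h4, where 9.17% did.

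**Figure D2:**
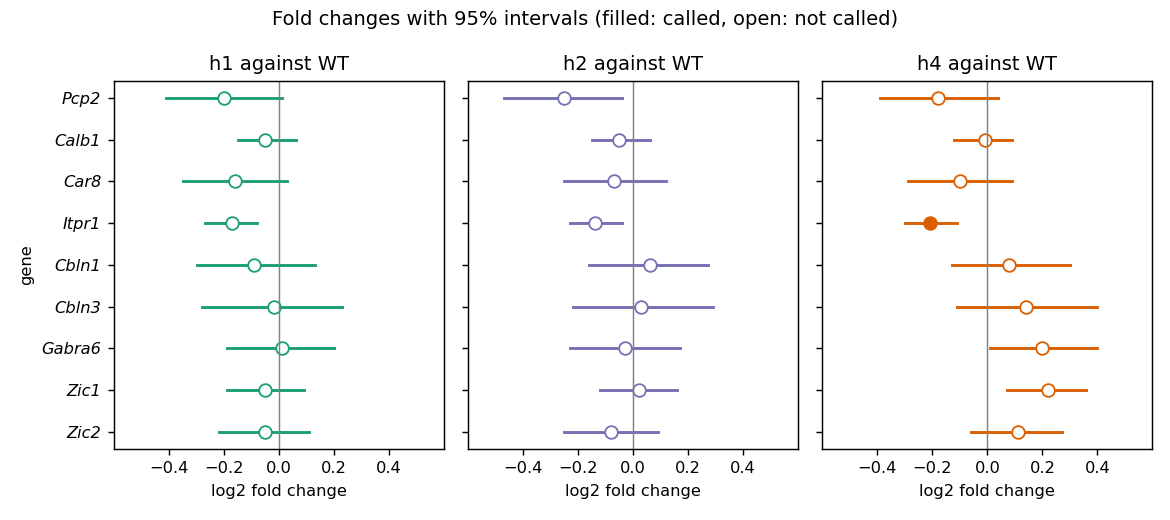
Log2 fold changes of the 9 genes in h1, h2 and h4 against WT, 1 panel per mutant, with bars for 95% intervals and filled points for genes called at an adjusted p under 0.05. Itpr1 in h4, at -0.21, is the filled point, the 4 Purkinje cell genes lie left of 0 in each panel, and the 5 granule cell genes lie right of 0 in h4.

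Among the granule cell genes, Zic1 was the 1 that edgeR called in any comparison. Zic1, a zinc finger transcription factor of granule cell precursors that is kept in mature granule cells, had 206, 177 and 218 CPM in h4 brains, against 171, 158 and 165 CPM in h1 brains, 170, 176 and 174 CPM in h2 brains and 169, 164 and 181 CPM in WT brains. The h4 brains lay above all h1 brains, as 14.8% of all genes did, and above all h2 brains, and h4 replicate 2 lay inside the WT range. Zic1 rose in h4 against h1 by 0.26 on the log2 scale (SE 0.06, edgeR adjusted p 0.0289) and was the 1 of 9 genes called there, where 4.64% of all genes were called and 2.11% were called higher. Against WT its log2 fold change was 0.22 (SE 0.06, edgeR adjusted p 0.0677), and against h2 it was 0.20 (SE 0.06, edgeR adjusted p 0.107). The difference from WT was called by DESeq2 (adjusted p 0.00593), by edgeR with no low-count filter (adjusted p 0.00509) and by edgeR with Xist status as a covariate (adjusted p 0.00154). The call against h1 was lost when only the 6 libraries compared entered the fit (adjusted p 0.113) and with limma on log2(TPM + 0.1) (adjusted p 0.123), and also without h1 replicate 2 (adjusted p 0.091), h1 replicate 3 (adjusted p 0.0781) or h4 replicate 1 (adjusted p 0.0903). Zic1 is also a gene of the meninges, and the summed level of 8 meningeal genes was 231 to 261 CPM in h4 brains, against 202 to 229 CPM in h1 brains, 235 to 246 CPM in h2 brains and 212 to 239 CPM in WT brains, none of the 8 being at 0 in any brain. In h4 against h1, 1 of the 8 was called, Dcn, the proteoglycan decorin, which rose by 0.25 on the log2 scale (edgeR adjusted p 0.0215), and the part of the meninges in the difference of Zic1 was not tested.

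Gabra6, the GABA-A receptor subunit typical of granule cells, had 141, 116 and 145 CPM in h4 brains, against 115, 106 and 126 CPM in WT brains. Cbln3, a cerebellin made almost solely by granule cells that is secreted together with Cbln1, had 293, 224 and 304 CPM in h4 brains and 238, 228 and 274 CPM in WT brains. In both genes h4 replicates 1 and 3 lay above every WT brain and replicate 2 did not. The log2 fold change against WT was 0.20 for Gabra6 (SE 0.09, edgeR adjusted p 0.248) and 0.14 for Cbln3 (SE 0.11, edgeR adjusted p 0.588).

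Cbln1, the cerebellin required for parallel fibre synapses, had 119, 100 and 134 CPM in h4 brains and 108, 107 and 116 CPM in WT brains, with a log2 fold change of 0.08 (95% interval -0.13 to 0.30). Zic2, a close relative of Zic1, had 31.8, 30.7 and 34.8 CPM in h4 brains and 26.7, 30.6 and 32.5 CPM in WT brains, with a log2 fold change of 0.11 (95% interval -0.06 to 0.27). The groups overlapped in both genes, and neither was called. Zic2 was above all h2 brains in all 3 h4 brains, as was Zic1, a separation that 12.1% of all genes showed in that direction.

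The 5 granule cell genes had log2 fold changes above 0 in h4, with a median of 0.14 against 0.009 over all genes, in h2 in 3 of 5 (median 0.02) and in h1 in 1 of 5 (median -0.05). With 1 library left out in turn, the value of Cbln1 in h4 ran from -0.02 to 0.18 on the log2 scale. In h4 against h2, where 3.22% of all genes were called, 0 of 9 genes were called by edgeR, while 3 had an unadjusted p under 0.05 (Gabra6, Zic1 and Zic2) and DESeq2 called 2 (Gabra6 and Zic1). In h2 against h1, where 0.722% of all genes were called, 0 of 9 were called, 0 had an unadjusted p under 0.05 and DESeq2 called 0. Car8, with 267, 278 and 277 CPM in h2 brains against 250, 260 and 254 CPM in h1 brains, and Cbln1, with 124, 112 and 109 CPM in h2 brains against 101, 104 and 105 CPM in h1 brains, did not overlap between these groups, a separation that 9.06% of all genes showed in that direction.

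The counts in h4 depended on single brains. The h4 brain of replicate 2 was the lowest of all 12 for 6 of the 9 genes (Pcp2, Calb1, Car8, Itpr1, Cbln1 and Cbln3), and that of replicate 3 the highest for all 5 granule cell genes. Without h4 replicate 2, 4 of the 9 genes were called against WT, with Cbln3, Gabra6 and Zic1 higher and Itpr1 lower. Over all genes 675 were called there, 226 of them higher and 449 lower. Against h1, 5 of the 9 were then called higher (Car8, Cbln1, Cbln3, Gabra6 and Zic1), where 775 of all genes were called and 350 were higher. Without h4 replicate 3, only Pcp2 and Itpr1 of the 9 were called against WT, both lower. Over all genes 422 were called there, 293 of them lower. The log2 fold change of Pcp2 was then -0.30 (edgeR adjusted p 0.0437). Itpr1 in h4 against WT stayed called with any 1 of the 12 libraries left out (adjusted p 0.00102 to 0.0432). Replicate 2 was also the h4 brain low in Xist, so that brain and Xist status cannot be told apart within h4.

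**Figure D3:**
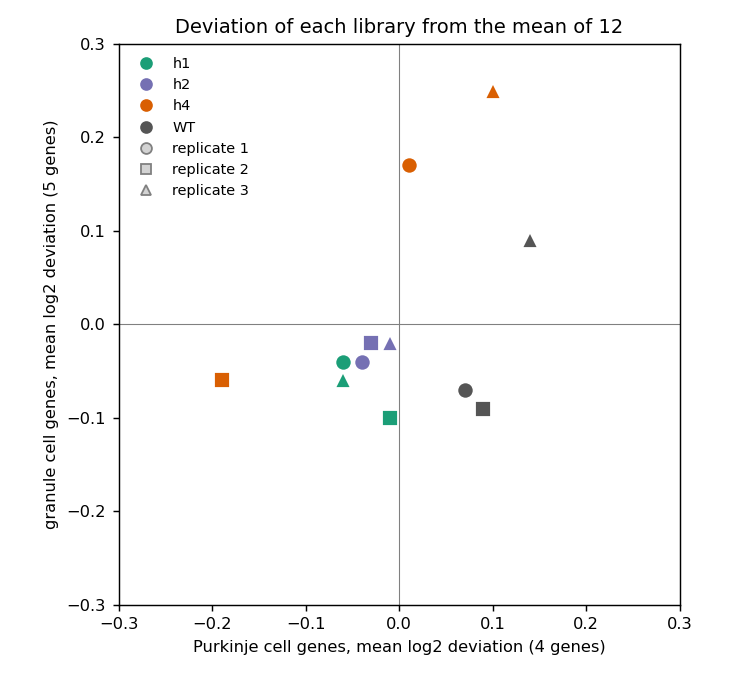
Each point is a brain, placed by the mean deviation of its 4 Purkinje cell genes (x axis) and of its 5 granule cell genes (y axis) from the mean of the 12 brains, on the log2 scale, coloured by genotype. The h4 brains of replicates 1 and 3 stand highest on the y axis, at 0.17 and 0.25, h4 replicate 2 stands farthest left, at -0.19, and the WT brains lie to the right, at 0.07 to 0.14, with h4 replicate 3, at 0.10, among them on that axis.

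The spread between mice of 1 genotype was largest in h4 for 8 of the 9 genes, Zic2 being the exception. The median coefficient of variation of the 9 genes was 11.7% in h4, 3.88% in h1 and 3.32% in h2, against 5.3% in WT. Over all genes that averaged 20 CPM or more the same median was 3.52% in h4, 3.24% in h1 and 3.67% in h2, against 3.72% in WT. By this median the h4 libraries were not more variable, and the share of all genes that spread most in h4 was not counted. Outside the cerebellum, the summed genes of the striatum also ranged most widely in h4 (570 to 711 CPM), and those of the hypothalamus in h2 (31.5 to 51 CPM). Cbln3 varied most, by 15.8% in h4 with the highest brain at 1.36 times the lowest, and Itpr1 least, by 6.08%.

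A Purkinje cell gene can also be set against a granule cell gene of the same brain. The ratio of Itpr1 to Gabra6, in CPM, was 7.13, 8.03 and 7.27 in h4 brains, 9.5, 8.56 and 8.27 in h1 brains and 9.15, 9.57 and 8.85 in h2 brains, against 10.1, 11.1 and 8.71 in WT brains. All 3 h4 brains, replicate 2 included, lay below the 9 others. The ratio of Pcp2 to Gabra6 did not set the h4 brains apart in this way. It was 0.216, 0.231 and 0.251 in h4 brains, 0.266, 0.269 and 0.253 in h1 brains and 0.266, 0.241 and 0.27 in h2 brains, against 0.277, 0.338 and 0.297 in WT brains. On this ratio all 3 WT brains lay above the 9 mutant brains, the nearest being 0.277 in WT and 0.27 in h2. With genes of such different lengths these ratios have no absolute meaning and serve only to compare brains, and they were not tested.

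The 9 genes varied together across the 12 brains to different degrees. The closest pair was Cbln3 and Zic1 (Pearson's r = 0.87, Spearman's rho = 0.78, adjusted permutation p of r 0.0144), followed by Gabra6 and Zic1 (r = 0.86, rho = 0.55, adjusted permutation p 0.0282) and by Cbln3 and Gabra6 (r = 0.85, rho = 0.60, adjusted permutation p 0.0216). Without h4 replicates 1 and 3, the brains farthest from the median of the gene named first, these r were 0.57, 0.28 and 0.51, so the relation of Gabra6 with Zic1 in particular rests on those brains. Over the 9 brains that are not h4, r was 0.89 for Cbln3 with Zic1, 0.28 for Gabra6 with Zic1 and 0.63 for Cbln3 with Gabra6. Calb1 and Car8 were the closest Purkinje cell pair (r = 0.77, rho = 0.74, adjusted permutation p 0.0282), and r was 0.64 without h4 replicates 1 and 2. Cbln1 and Cbln3, whose proteins form complexes with each other, had r = 0.76 (rho = 0.71, adjusted permutation p 0.0282) and 0.86 without h2 replicate 1 and h4 replicate 3. Of the 36 pairs, 11 had an adjusted permutation p of r under 0.05 and 0 had one of rho, whose smallest adjusted value was 0.0774. The permutations shuffled the 12 brains without regard to genotype, so a difference between genotypes that both genes share also enters this p.

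Itpr1 was less closely tied to the granule cell genes. Its r was -0.24 with Gabra6, -0.18 with Zic1 and -0.04 with Cbln3, and 0.58 with Pcp2 and 0.63 with Car8, none with an adjusted permutation p under 0.05. Without WT replicates 1 and 2, its r was 0.09 with Gabra6, 0.10 with Zic1 and 0.45 with Cbln3, and within genotypes it was 0.22, 0.44 and 0.34. Within genotypes, after each genotype's mean was taken out, the median r over the 36 pairs was 0.65, and Cbln3 had 0.97 with Zic1, 0.92 with Car8 and 0.90 with Gabra6. The spread within a genotype was largest in h4 for most of the genes, so the values within genotypes rest largely on the h4 brains. Over the brains that are not h4, with genotype means left in, the median r was 0.36. There Cbln3 had 0.89 with Zic1, 0.45 with Car8 and 0.63 with Gabra6.

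**Figure D4:**
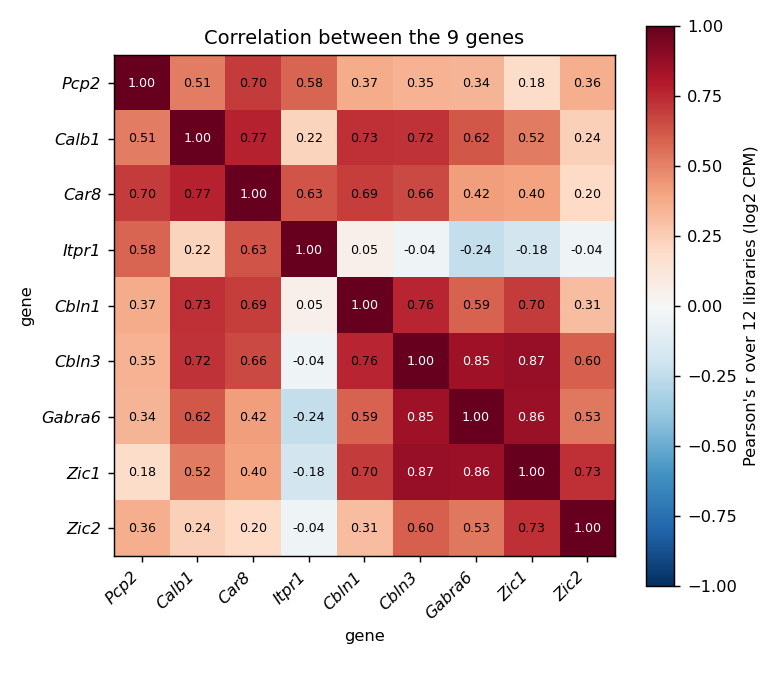
Pearson's r between each pair of the 9 genes over the 12 brains, on log2 CPM, with Purkinje cell genes before granule cell genes on both axes. Cbln3, Gabra6 and Zic1 form the closest set, at 0.85 to 0.87, while Itpr1 is at -0.24 with Gabra6.

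Other genes of the cerebellum were read beside the 9. Of 20 further Purkinje cell genes, edgeR called 0 in h1 or h2 against WT, where 0.625% and 0.679% of all genes were called. In h4 against h1, where 4.64% of all genes were called, 1 was called. This was Pcp4, which fell by 0.21 on the log2 scale (edgeR adjusted p 0.00795). The calls among the 20 in h4 against WT and in h4 against h2 are not reported here. The medians of these 20 genes were -0.09 in h1, -0.08 in h2 and -0.07 in h4. Rora was among them and was not called, with log2 fold changes of -0.03 in h1, -0.05 in h2 and 0.02 in h4 (95% interval -0.07 to 0.12 in h4).

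Of 15 further granule cell genes, 0 were called in h1 or h2, where 0.625% and 0.679% of all genes were called, and 2 in h4, where 4.55% were. Zic5, another Zic gene, rose by 0.31 on the log2 scale (20.3, 17 and 21.1 CPM in h4 brains against 14.6, 15.2 and 17 CPM in WT brains, edgeR adjusted p 0.0444). Cadps2, which primes dense-core vesicles for release, fell by 0.16 (131, 128 and 132 CPM in h4 brains against 147, 140 and 148 CPM in WT brains, edgeR adjusted p 0.00429). The median of these 15 genes in h4 was 0.03, against 0.14 for the 5 granule cell genes above. Of 8 genes of Bergmann glia, interneurons and unipolar brush cells, 1 was called in h4: Eomes, a T-box factor of unipolar brush cells that also marks mitral and tufted cells of the olfactory bulb, rose by 0.73 (8.12, 8.37 and 8.55 CPM in h4 brains against 4.11, 5.91 and 4.96 CPM in WT brains, edgeR adjusted p 0.0361).

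Against WT, partners of the named proteins were called in h4 only, where 4.55% of all genes were called and 2.91% were called lower. Of 12 genes of the calcium pathway around Itpr1, edgeR called 0 in h1 or h2 against WT. In h4 against WT the calls, all lower, included Gnaq and Atp2a2. Gnaq, the G protein that couples the glutamate receptor mGluR1 to phospholipase C, fell by 0.15 on the log2 scale (edgeR adjusted p 0.0161). Atp2a2, the pump that refills the endoplasmic reticulum with calcium, fell by 0.17 (edgeR adjusted p 0.00343). Atp2a2 had 917, 893 and 948 CPM in h4 brains, against 1064, 1042 and 976 CPM in WT brains, and like Itpr1 it is expressed throughout the brain. Of 7 genes around the cerebellins, Cbln2, a cerebellin mainly of the forebrain, fell in h4 by 0.27 (26.3, 24.8 and 28.4 CPM in h4 brains against 31.8, 33.0 and 30.4 CPM in WT brains, edgeR adjusted p 0.0131). Of 5 subunits that assemble with that of Gabra6, 0 were called in h4 against WT.

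The lists of other brain regions followed the 9 genes to different degrees. Over the 12 brains, the mean deviation of each list was correlated with the mean of the 9 genes' standardised log2 CPM. The r was 0.94 for the 15 further granule cell genes and 0.77 for the 20 further Purkinje cell genes. It was -0.74 for 8 genes of the striatum, -0.60 for 8 of the cortex and 0.51 for 8 of the meninges. The lists of thalamus (0.40), olfactory bulb (0.17), hippocampus (0.07), hindbrain (-0.10) and hypothalamus (-0.18) lay nearer to 0. These are given as descriptions with no test, since all lists share the same libraries and totals. In h4 replicate 2 the 20 further Purkinje cell genes deviated by -0.17, the 15 granule cell genes by -0.15 and the 8 striatal genes by 0.16, whereas in h4 replicate 1 the striatal genes deviated by -0.18. The summed striatal genes were 570 to 711 CPM in h4, 640 to 678 CPM in h1 and 643 to 662 CPM in h2, against 626 to 646 CPM in WT. Whether the share of each region in the RNA differed between brains, and its part in the values of the 9 genes, was not tested.

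**Figure D5:**
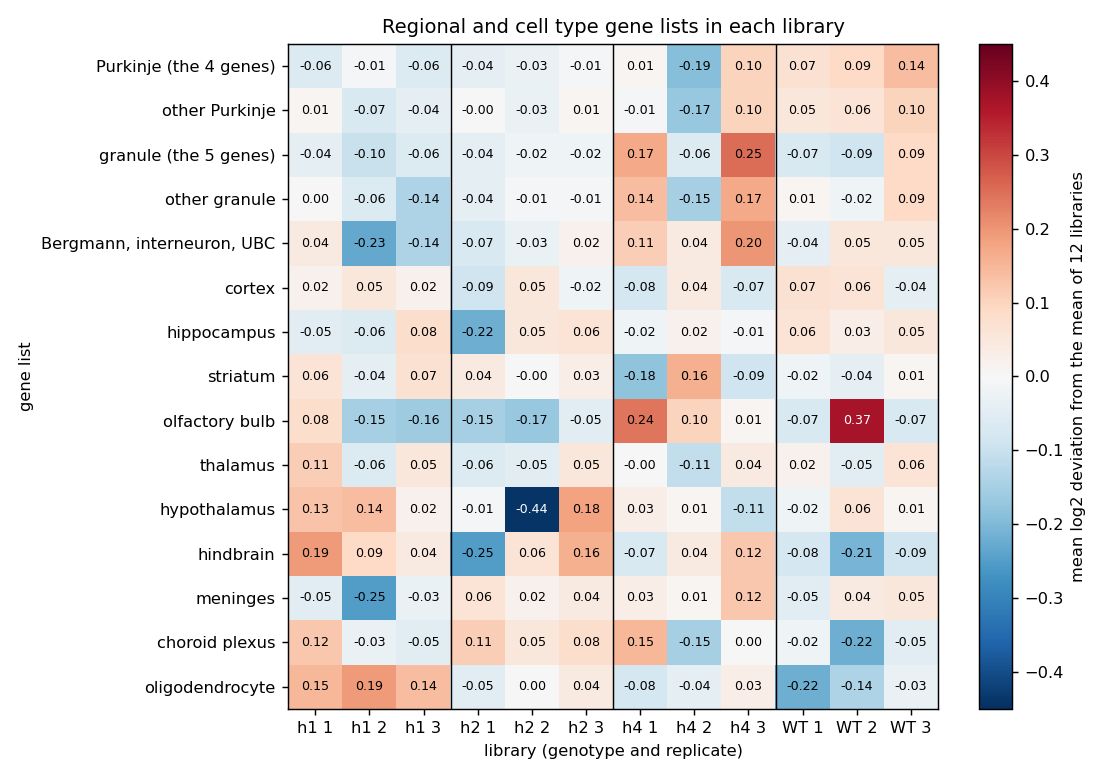
Mean log2 deviation of each gene list from its mean over 12 brains, with lists down the page and brains across it in the order h1, h2, h4 and WT. In h4 replicate 2 the Purkinje cell genes are at -0.19 and the striatal genes at 0.16, and in h4 replicate 1 the granule cell genes are at 0.17 and the striatal genes at -0.18.

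Among 13643 genes ranked by the r of their log2 CPM with the mean profile of the 9, the 10 most alike over the 12 brains were Neurod1 (0.93), Mtss1 (0.91), Nfia (0.90), Zgrf1 (0.89), En2 (0.89), Rps6ka1 (0.88), Ppp1r17 (0.88), Mreg (0.88), Fat2 (0.88) and Cep76 (0.86). Neurod1, a transcription factor of granule cells, Fat2, a protocadherin of their parallel fibres, En2, a homeobox gene of the developing cerebellum, and Ppp1r17, a phosphatase inhibitor of Purkinje cells, were already in the lists above. The 5 least alike were Fam81a (-0.94), Ptk2b (-0.91), Map2k1 (-0.89), Stum (-0.88) and Dgat2 (-0.88). For comparison, the 5th and 95th percentiles of the ranked genes were -0.55 and 0.56. Without h4 replicates 2 and 3, r ran from 0.67 (Cep76) to 0.94 (Neurod1) over the 10 most alike genes and from -0.92 (Fam81a) to -0.71 (Dgat2) over the 5 least alike.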

How the data were processed

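The authors deposited 1 gene-level RSEM table per library. Bowtie2 2.2.0 and RSEM 1.2.12 are named in the submitters' processing notes, and the genome build is not given in the sources used here. Expected counts, as deposited, are estimated read pairs per gene, not always whole, since RSEM shares ambiguous pairs among genes. The deposited TPM values are normalised by the authors to length and library. The deposited FPKM values were not used. The authors' lengths and effective lengths are RSEM averages over transcripts. Per the labels, libraries were made with a TruSeq v2 poly(A) kit, which does not mark strand.

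Symbols came from GENCODE M21 by Ensembl identifier (37607 of 38924 genes matched). Expected counts were rounded, and edgeR 4.0.16 (R 4.3.3) was run with its quasi-likelihood test, after its low-count filter (16493 genes kept, 22431 removed) and TMM scaling (factors 0.991 to 1.012), with 1 mean per genotype over 12 libraries. The threshold for a call was an adjusted p (Benjamini-Hochberg, over all genes tested) under 0.05. CPM are those counts divided by the library total and put on a fixed scale. The common biological coefficient of variation was 0.0531. Replicates of each genotype differed by more than sampling noise (chi-square per degree of freedom 2.34 to 4.37). p-values measure the spread between mice, with 1 spread per gene shared by all genotypes. The median coefficient of variation of the genes described here was 11.7% in h4, 3.88% in h1, 3.32% in h2 and 5.3% in WT. The shared spread can thus be too small for h4 and too large for h1 and h2. With only the groups compared, the SE of Car8 in h1 against WT was 0.04, in place of 0.08. That of Zic1 in h4 against h1 was 0.08, in place of 0.06. That of Itpr1 in h4 against WT stayed at 0.04. Each library's precision rests on 14513800 to 24694200 estimated pairs.

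Correlations used 100000 permutations of the 12 libraries, without regard to genotype, adjusted over 36 pairs. The report names the 9 genes, called genes of 16 further lists (at most 4 per list and comparison; described are those of the cerebellum and those whose levels are set beside the 9 genes), and the 10 most and 5 least alike genes with at least 1 CPM. Values of 1 gene of these lists are not reported here. The members and lists were chosen with earlier results of these data known. In simulated counts for h4 against WT over 16360 genes, changes were set only in randomly drawn genes averaging 20 CPM or more. The test recovered 42% of genes changed 1.15-fold, 94% at 1.25-fold and 100% at 1.5-fold, with 16 false calls. Each simulated gene had the same spread in all genotypes, whereas most of the 9 genes spread more in h4, so these shares need not hold for them. Alternatives were DESeq2 1.42.0, its size factors in edgeR, no low-count filter, Xist status as a covariate, limma 3.58.1 on log2(TPM + 0.1), only the groups compared, each library left out, and a replicate block for h1 and h2.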

Additional observations from a re-analysis of the deposited data

How the results depend on the processing

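Itpr1 in h4 against WT kept its direction in all alternatives and lost its call only with limma on log2(TPM + 0.1) (adjusted p 0.0842); Zic1 in h4 against h1 kept its direction in all. Without a low-count filter, genes called numbered 236 in h1, 288 in h2 and 373 in the mean of the mutants against WT, 290 in h2 against h1 and 844 in h4 against h2, and members called numbered 1 in h1, 1 in h2, 2 in h4 and 1 in h4 against h2. DESeq2 called 1 member in h1 (Itpr1), 3 in h4 (Itpr1, Gabra6 and Zic1) and 2 in h4 against h2 (Gabra6 and Zic1). With Xist status as a covariate, genes called numbered 31 in h1, 69 in h2 and 65 in the mean of the mutants, with 2 members called in h4 (Itpr1 and Zic1) and 0 in the mean of the mutants. With limma, genes called numbered 0 in h1, 10 in h2, 151 in h4, 7 in the mean of the mutants, 4 in h2 against h1, 90 in h4 against h1 and 116 in h4 against h2, and 0 members in any comparison. With only the groups compared, 2 members were called in h1 (Car8 and Itpr1) and 0 in h4 against h1, and 193 genes in h2 against h1. No cause of these changes was tested. The replicate block over h1 and h2 libraries gave 204 called genes in h2 against h1, in place of 119, and 0 members. Those libraries share only a number (correlations of deviations -0.14, -0.10 and 0.02), and the labels give no shared numbers to other groups, whose replicates are numbered in order of deposit. The ratio of summed levels to WT was 0.935 for h1 as a mean of log2 CPM and 0.927 for h2 as summed TPM, in place of 0.916 and 0.949 for summed CPM; for h4 it was 0.965, and 1.03 as a mean of log2 CPM.

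With 1 library left out in turn, genes called numbered 22 to 166 in h1, 18 to 348 in h2, 230 to 1111 in h4, 18 to 505 in the mean of the mutants, 44 to 160 in h2 against h1, 313 to 896 in h4 against h1, 251 to 619 in h4 against h2, and members called 0 to 2 in h1, 0 to 1 in h2, 1 to 4 in h4, 0 to 2 in the mean of the mutants, 0 in h2 against h1, 0 to 5 in h4 against h1, 0 to 3 in h4 against h2. Direction changed in the following log2 fold changes, of genes that were not called. With the Xist covariate these were 0.08 for Cbln3, 0.03 for Zic1 and 0.02 for Zic2 in h1, 0.01 for Car8 and 0.01 for Gabra6 in h2, 0.00 for Calb1 in h4 and 0.05 for Zic2 in the mean of the mutants. With limma they were -0.03 for Gabra6 in h1, -0.05 for Zic1 in h2, -0.01 for Calb1 in h4 against h1, -0.01 for Cbln1 in h4 against h2 and -0.01 for Cbln1 in the mean of the mutants. With 1 library left out, ranges that crossed 0 were as follows. In h1, they were -0.05 to 0.07 for Gabra6, -0.08 to 0.05 for Cbln3, -0.13 to 0.01 for Zic2. In h2, they were -0.02 to 0.11 for Cbln3, -0.01 to 0.05 for Zic1, -0.09 to 0.03 for Gabra6. In h4, they were -0.06 to 0.05 for Calb1, -0.19 to 0.01 for Car8, -0.02 to 0.18 for Cbln1. In the mean of the mutants, they were -0.02 to 0.05 for Cbln1, -0.01 to 0.12 for Cbln3, 0.00 to 0.12 for Gabra6, -0.08 to 0.05 for Zic2. In h2 against h1, they were -0.02 to 0.02 for Calb1, -0.09 to 0.04 for Zic2, -0.01 to 0.06 for Itpr1, -0.12 to 0.00 for Pcp2. In h4 against h1, they were -0.10 to 0.12 for Pcp2, -0.01 to 0.10 for Calb1, -0.08 to 0.00 for Itpr1, -0.02 to 0.17 for Car8. In h4 against h2, they were -0.08 to 0.13 for Cbln1, -0.01 to 0.10 for Calb1, -0.12 to 0.07 for Car8, -0.04 to 0.17 for Pcp2. Calls near the threshold are limited by 3 mice per genotype, by WT brains all high in Xist, and by strain differing with allele.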
